A study of Macaca mulatta with 5 samples.

Results

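Single-exon transcripts are gene models without an intron, and 2601 of them were followed here across 5 tissues of the rhesus macaque. They were taken from the 51763 transcripts of revised macaque gene models on the rheMac2 genome. A transcript was included if it had a gene identifier, an exon length above 200 bp, and a genomic span that exceeded the exon length by at most 1 bp. The span equalled the exon length in 2439 of them and was 1 bp longer in 162. They were compared with the 35181 transcripts of 20153 genes that passed the same identifier and length limits and had a longer span, called transcripts with introns below. That class holds 1289 transcripts whose span exceeded the exon length by only 2 to 10 bp, a gap too short for a usual intron. None of the 2601 genes had another transcript listed.

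Each tissue was represented by 1 library, without replicates: cerebellum, kidney, lung, heart and spleen, all from male animals. The study states that its tissues came from a single animal, which covers 4 of the 5. The animal behind the spleen library is not stated. RNA was isolated with Trizol, poly(A)-positive RNA was selected, and libraries were built strand-specifically by incorporation of deoxy-UTP. The labels give neither the age of the animals nor any treatment, and the protocol of the heart label mentions RNA from 2 tissues.

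Most vertebrate genes are split by introns, and those that are not belong to a few recurrent kinds. Many G-protein coupled receptors, nearly all olfactory and bitter taste receptors, and the replication-dependent histones are encoded in 1 exon, and retrocopies arise when a spliced messenger RNA is copied back into the genome. Gene annotations also list microRNAs, small nucleolar RNAs and spliceosomal RNAs as unspliced models, although most of the mature small RNAs carry no poly(A) tail, as is the case for the messenger RNAs of replication-dependent histones.

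The files gave between 48306898 and 81517974 properly mapped reads per library, and single-exon transcripts held 2.32% to 3.31% of the counts summed over all listed transcripts. Expression is given as RPKM, the reads of a transcript scaled to its exon length and to the depth of the library, and a transcript was called detected at 1 RPKM or more. At the median exon length of the single-exon transcripts, 3 reads corresponded to 0.070 to 0.118 RPKM, which was taken as the smallest level the depth can show. Of the 31 tissue marker genes looked up, 24 had a symbol, and each of these was highest in its labelled tissue. Heart values were low in general, with an upper quartile of 4.57 RPKM over transcripts with introns that had reads, against 8.20 to 11.3 RPKM in the other tissues. The counts summed over all listed transcripts came to 47.9% of the properly mapped reads in heart, against 71.3% to 91.5% in the other tissues. A read can count for several isoforms or overlapping transcripts, so these are not shares of reads that fell on transcripts. RPKM is scaled to all properly mapped reads, and the part of this difference in the heart values was not tested. With 1 library per tissue no test between tissues could be made, and the 95% Wilson intervals cover counting error only.

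Gene symbols were found for 541 single-exon transcripts (20.8%), against 73.7% of the transcripts with introns. Single-exon transcripts were also shorter, with a median exon length of 525 bp (quartiles 318 and 961 bp, longest 8715 bp) against 1864 bp. They made up 6.88% of all transcripts above 200 bp with an identifier. This share was 10.5% on chromosome X, 10.04% on chromosome 14 and 9.22% on chromosome 17, and only 3.83% on chromosome 20 and 4.42% on chromosome 16. All 15 mitochondrial transcripts of this length belonged to the single-exon class, and all were listed at 0 reads in every tissue. The same held for all 38 mitochondrial transcripts of any length. Whether mitochondrial reads were aligned or counted is not given in the sources used here, so these zeros cannot be read as absent expression. The length limit itself did not mark a step in detection. Of the 55 single-exon transcripts of at most 210 bp, 13 were detected (23.6%) and the highest level was 47.6 RPKM. Among 88 otherwise alike transcripts of 191 to 200 bp, which were left out, 23 were detected (26.1%) and the highest level was 1503 RPKM.

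The first question was how many of these transcripts were detected at all. At least 1 tissue reached 1 RPKM for 1064 single-exon transcripts, or 40.9%, against 76.7% of the transcripts with introns and 74.2% of both classes together. At least 1 read in at least 1 library was counted for 1717 single-exon transcripts (66.0%), against 91.8% of the transcripts with introns and 90.0% of both classes, which left 884 single-exon transcripts without any read. The 15 mitochondrial transcripts are among these 884. Of those with reads, 653 stayed below 1 RPKM throughout. Reads in all 5 libraries were found for 976 single-exon transcripts (37.5%) and for 71.3% of the transcripts with introns.

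Detection was also compared by exon length. Among transcripts with introns each longer bin had a higher share detected, whereas among single-exon transcripts the share was lower in the middle bin than in the one before it. Above 200 and up to 400 bp, 29.7% of 985 single-exon transcripts were detected, against 25.2% of the transcripts with introns of this length. Above 400 and up to 600 bp, the shares were 46.9% of 450 and 45.8%. In these short bins, which hold the majority of single-exon transcripts, the share detected was thus slightly higher than among transcripts with introns. Above 600 and up to 1000 bp it was lower, at 33.3% of 583 against 60.5%, and it was 36.2% when transcripts with an olfactory or taste receptor symbol were left out. Above 1000 and up to 2000 bp, 58.6% of 408 were detected against 78.5%. Above 2000 bp, 72.6% of 175 were detected against 90.3%. When the transcripts with introns were weighted to the lengths of the single-exon transcripts, 49.4% of them were detected, so that the difference shrank from 35.8 to 8.50 percentage points. The 1289 transcripts with a gap of only 2 to 10 bp stayed in the class with introns, both in the bins and in the weighting. Length was not matched without them, so their part in these comparisons is not known.

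**Figure D1:**
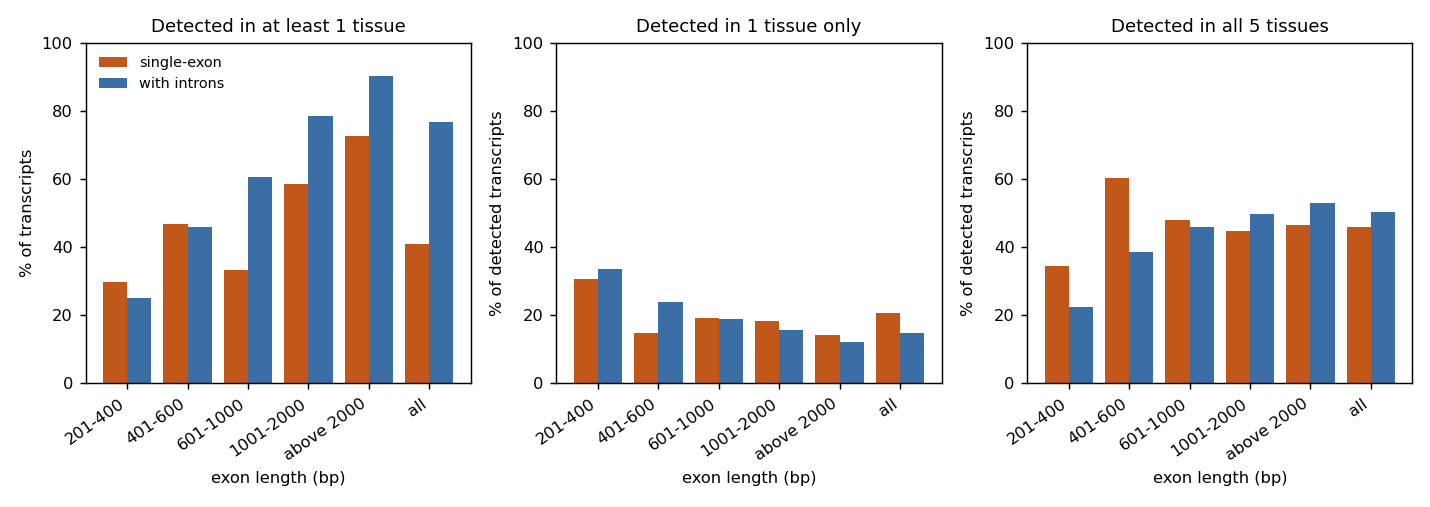
The 3 panels plot, by exon length in bp, the percentage of transcripts that reached 1 RPKM anywhere, and the percentages of detected transcripts that reached it in 1 tissue only and in all 5, for single-exon transcripts (orange) and transcripts with introns (blue). The bars for detection are close together up to 600 bp and apart above it, where 33.3% against 60.5% were detected up to 1000 bp.

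In each tissue a smaller share of the single-exon transcripts was detected than of those with introns. Cerebellum reached 1 RPKM for 739 single-exon transcripts (28.4%), against 54.4% of both classes together. Kidney did so for 751 (28.9% against 57.4%) and lung for 816 (31.4% against 62.1%). Heart had the lowest share (23.1% against 44.0%), and spleen the highest, with 835 (32.1% against 59.7%). The order of the tissues was not the same in the class with introns, where lung was first with 64.4% and spleen second with 61.7%. Heart, where the summed counts came to 47.9% of the properly mapped reads, was last in both classes.

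**Figure D2:**
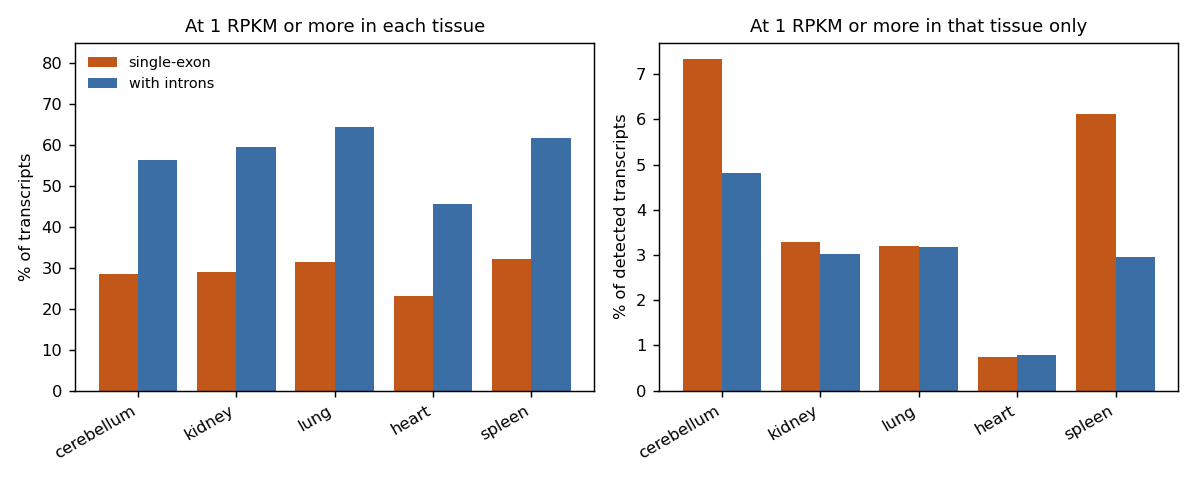
Bars show, for each tissue (1 library each), the percentage of transcripts at 1 RPKM or more in that tissue (left) and the percentage of detected transcripts that reached 1 RPKM in that tissue only (right), for single-exon transcripts (orange) and transcripts with introns (blue). Single-exon bars on the left lie between 23.1% in heart and 32.1% in spleen, and on the right cerebellum (7.33%) and spleen (6.11%) stand above the other 3 tissues.

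Once detected at 1 RPKM, single-exon transcripts had a median level close to that of transcripts with introns, and quartiles farther apart. The median of the highest RPKM over tissues was 8.64 (quartiles 3.01 and 25) for detected single-exon transcripts and 9.93 (quartiles 4.53 and 22.0) for those with introns. With detection at 0.1 RPKM the medians were 3.49 and 8.15 RPKM, and at 5 RPKM they were 18.8 and 14.9 RPKM, so the comparison depended on the threshold. It also depended on length, since transcripts with introns weighted to the same lengths had a median of 7.68 RPKM. Very high levels were found in both classes. At least 1 tissue reached 100 RPKM for 89 single-exon transcripts, which is 8.36% of those detected, against 3.93% of the detected transcripts with introns. Over all transcripts, detected or not, that level was reached by 89 of 2601 single-exon transcripts, by 1061 of 35181 with introns, and by 3.04% of both classes. The 8.36% is taken over the 40.9% of single-exon transcripts that were detected, and the 3.93% over the 76.7% of those with introns. Among transcripts detected in a given tissue, the median level in cerebellum was 5.97 RPKM for single-exon transcripts and 5.53 RPKM for those with introns. Within each tissue the medians of the classes were thus close, with the widest gap in heart. They were 7.10 and 5.99 RPKM in kidney, 6.54 and 6.57 RPKM in lung, 5.47 and 3.71 RPKM in heart, and 7.79 and 7.14 RPKM in spleen.

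A few single-exon transcripts held much of the signal of the class. The 10 highest made up 44.4% of the summed RPKM of single-exon transcripts in heart, 39.1% in spleen, 38.9% in lung, 36.5% in kidney and 26.3% in cerebellum. The 10 highest transcripts with introns made up 3.54% to 13.6% of the sum of their class. The classes hold 2601 and 35181 transcripts, so 10 are a larger part of the single-exon class. These shares therefore do not compare like parts of the classes. Of the 89 single-exon transcripts at 100 RPKM or more, 83 were detected in all 5 tissues and only 9 had a symbol. Of all detected single-exon transcripts, 45.8% were detected in all 5. The highest level of the 89 was in spleen for 49, in heart for 19, in kidney for 9, in cerebellum for 8 and in lung for 4. Over all detected single-exon transcripts, the shares in the same order were 39.4%, 7.24%, 15.5%, 21.6% and 16.3%. In 36 of the 49 that were highest in spleen, lung came second. In 17 of the 19 that were highest in heart, kidney came second.

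The most abundant single-exon transcripts carried no symbol in the table used here. ENSMMUG00000031385 (chromosome 10, 7993204 to 7993679) had 2881 RPKM in spleen (95% interval 2863 to 2900), 775 in cerebellum, 2594 in lung, 1702 in kidney and 1562 in heart. ENSMMUG00000023179 (chromosome 18, 3839408 to 3839855) had 1973 RPKM in spleen, 686 in cerebellum, 1293 in lung, 1298 in kidney and 777 in heart. ENSMMUG00000031336 (chromosome 1, 175086447 to 175086994) had 2055 RPKM in spleen, 299 in cerebellum, 1517 in lung, 1048 in kidney and 910 in heart. All 3 were lowest in cerebellum and highest in spleen. ENSMMUG00000029374 (chromosome 7, 107335150 to 107335753) had 626, 1093, 1076, 500 and 1851 RPKM in cerebellum, kidney, lung, heart and spleen. ENSMMUG00000030448 (chromosome 3, 26505915 to 26506377) had 428, 763, 1148, 432 and 1830 RPKM in the same order. Spleen was again the highest of the 5 tissues for both.

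A different order of tissues was seen for the leading transcripts of heart and kidney. ENSMMUG00000037009 (chromosome 20, 23618677 to 23619188) had 1961 RPKM in heart and 910 in kidney, against 168 in cerebellum, 108 in lung and 197 in spleen. ENSMMUG00000037213 (chromosome 20, 23618700 to 23618981) lies within it, so that the pair can share reads, and had 1707 RPKM in heart and 917 in kidney. Both lie within the span of LCMT1, a methyltransferase of protein phosphatase 2A, whose transcript had 3.75 RPKM in heart and at most 14.2 RPKM in the other tissues. ENSMMUG00000030878 (chromosome 14, 120913912 to 120914157) had 1871 RPKM in kidney, where the interval was 1847 to 1896, and 135 to 308 RPKM in the other 4 tissues. These transcripts were present in every tissue, and 1 or 2 tissues stood above the rest.

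The highest minimum over tissues among transcripts with a symbol was that of UBB, which encodes a polyubiquitin precursor. UBB (ENSMMUG00000023316, chromosome 16, 16077944 to 16078714) had 958 RPKM in kidney, 830 in spleen, 682 in lung, 585 in cerebellum and 495 in heart. Its levels were the most even of the leading transcripts, with a tau of 0.32. Tau is an index of tissue restriction that runs from 0 for equal RPKM in all tissues to 1 for a single tissue. Since ubiquitin repeats and retrocopies can be nearly identical in sequence to other loci, the level of such a transcript is uncertain. The study kept uniquely mapping reads for its editing calls, and whether the deposited counts used the same reads is not given in the sources used here.

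**Figure D3:**
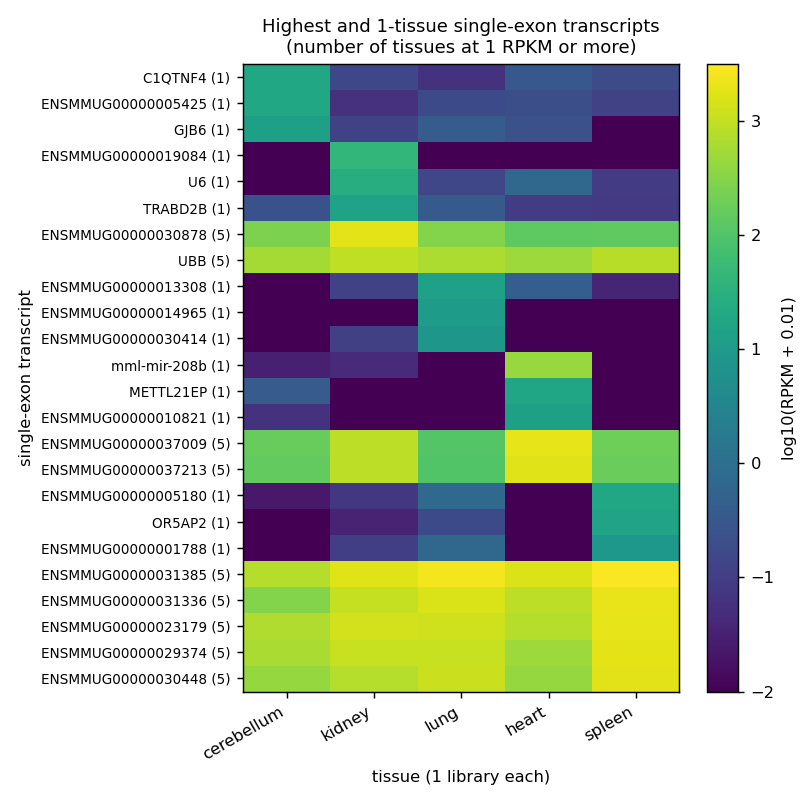
Each row is a single-exon transcript chosen as among the 3 highest of a tissue, the 3 highest detected in that tissue only, or the 5 with the highest minimum, columns are tissues, and colour gives log10(RPKM + 0.01). Rows are grouped by the tissue of the highest level, with the number of tissues at 1 RPKM or more in parentheses. Rows marked 5 are bright in all columns and rows marked 1 in a single column.

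Tissue restriction was described by the number of tissues in which a transcript was detected. Of the 1064 detected single-exon transcripts, 220 were detected in 1 tissue (20.7%), 120 in 2, 101 in 3, 136 in 4 and 487 in all 5 (45.8%). Among detected transcripts with introns, 14.8% were detected in 1 tissue and 50.2% in all 5. For the detected transcripts of both classes together, the shares were 15.0% for 1 tissue and 50.1% for all 5. Counted over all transcripts whether detected or not, a different base, they were 11.1% for 1 tissue and 37.2% for all 5. The difference between the classes did not persist when transcripts with introns were weighted to the lengths of the single-exon class. The weighted shares were 20.9% for 1 tissue and 42.1% for all 5. The weighting included the 1289 transcripts with a gap of 2 to 10 bp and was not repeated without them. Median tau was 0.642 for detected single-exon transcripts, 0.623 for those with introns and 0.654 for the latter after weighting. The threshold mattered as well. At 0.1 RPKM, 54.2% of detected single-exon transcripts passed in all 5 tissues, against 70.2% of those with introns, and 17.4% against 8.0% passed in 1 tissue. With a threshold of 5 RPKM in place of 1 RPKM, 36.8% of detected single-exon transcripts passed in all 5 tissues, against 22.1% of those with introns, and 26.5% against 28.0% passed in 1 tissue. Both differences thus turned between these thresholds.

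The short bins differed in another way. Above 400 and up to 600 bp, 127 of 211 detected single-exon transcripts (60.2%) were detected in all 5 tissues, against 38.5% of the transcripts with introns of that length. Above 200 and up to 400 bp, the shares were 34.5% and 22.4%. Above 2000 bp the order was the opposite, with 46.5% of single-exon transcripts and 53.0% of those with introns. Single-exon transcripts in the bin up to 600 bp also had the highest median level of the 5 length bins, 12.7 RPKM, compared with 5.87 RPKM for transcripts with introns of that length.

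Of the 220 single-exon transcripts detected in 1 tissue, 78 were detected in cerebellum, 65 in spleen, 35 in kidney, 34 in lung and 8 in heart. As shares of the detected transcripts these were 7.33%, 6.11%, 3.29%, 3.20% and 0.75%, against 4.81%, 2.96%, 3.01%, 3.18% and 0.80% of the detected transcripts with introns. For the detected transcripts of both classes together, the shares were 4.90% for cerebellum, 3.08% for spleen, 3.02% for kidney, 3.18% for lung and 0.80% for heart. Over all transcripts of both classes, detected or not, they were 3.64%, 2.29%, 2.24%, 2.36% and 0.590% in the same order. That base also holds undetected transcripts, so these last shares cannot be set beside the 7.33% to 0.75% of detected single-exon transcripts. Scaling each tissue to its upper quartile raised the number in heart from 8 to 20. Leaving out spleen raised the number in lung from 34 to 84. In 18 of the 220, no read was counted in any other tissue. Spleen was the tissue of the highest level for 419 detected single-exon transcripts (39.4%, against 34.0% of those with introns), cerebellum for 230, lung for 173, kidney for 165 and heart for 77.

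In cerebellum the leading 1-tissue transcripts were C1QTNF4, an unnamed gene and GJB6. C1QTNF4 (ENSMMUG00000004294, chromosome 14, 24521302 to 24522713), a secreted protein with C1q-like domains, had 19.3 RPKM in cerebellum (interval 18.5 to 20.1), 0.313 in heart, 0.169 in spleen, 0.147 in kidney and 0.055 in lung. ENSMMUG00000005425 (chromosome 17, 14742650 to 14744235) had 18.9 RPKM in cerebellum and at most 0.199 RPKM elsewhere. It lies within the span of NBEA, neurobeachin, whose transcript had 16.9 RPKM in cerebellum and 1.67 to 2.70 RPKM elsewhere. GJB6 (ENSMMUG00000023295, chromosome 17, 1297593 to 1298319), which encodes the astrocyte gap junction protein connexin 30, had 13.3 RPKM in cerebellum, 0.389 in lung, 0.217 in heart, 0.114 in kidney and no reads in spleen. Of the 78 cerebellum transcripts, 24 had a symbol, among them POU3F2, a neural transcription factor.

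The voltage-gated potassium channel KCNA1, whose transcript is edited at a site that the study verified, is also encoded in a single exon. It had no symbol in the table and was located by the position of that site (ENSMMUG00000012274, chromosome 11, 5027129 to 5028713), with 6.05 RPKM in cerebellum, 2 reads in heart and no reads in kidney, lung or spleen. Other transcripts high in cerebellum but also detected elsewhere were chosen after their values were seen. NAP1L3, a nucleosome assembly protein, had 33.9 RPKM in cerebellum and 0.431 to 3.67 RPKM elsewhere. CDK5R1, the neuronal activator of the kinase CDK5, had 24.5 RPKM in cerebellum and 0.323 to 3.45 RPKM elsewhere. The brain membrane protein TMEM151A had 11.9 RPKM in cerebellum and 1.28 RPKM in heart, with at most 0.094 RPKM in the other 3 tissues.

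In kidney the highest 1-tissue transcript was ENSMMUG00000019084 (chromosome 1, 22473947 to 22474808), with 43.0 RPKM from 1791 reads and not a single read in the other 4 libraries. A model with the symbol U6 (ENSMMUG00000036109), the name of a spliceosomal RNA, had 26.5 RPKM in kidney and at most 0.668 RPKM elsewhere. TRABD2B (ENSMMUG00000032139, chromosome 1, 50809027 to 50809608), a membrane metalloprotease that acts on Wnt proteins, had 14.6 RPKM in kidney and at most 0.353 RPKM elsewhere. All 3 stayed below 1 RPKM in every other tissue. Of those chosen after their values were seen, ALDH1B1, a mitochondrial aldehyde dehydrogenase, had 19.2 RPKM in kidney and 1.39 to 1.96 RPKM elsewhere. SLC26A2, a sulfate transporter, had 14.9 RPKM in kidney, 5.61 in lung, 2.69 in spleen, 0.160 in heart and 0.050 in cerebellum.

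In lung the leading 1-tissue transcripts had no symbol. ENSMMUG00000013308 (chromosome 1, 18594573 to 18595666) had 14.1 RPKM in lung and at most 0.433 RPKM elsewhere. ENSMMUG00000014965 (chromosome 14, 17158828 to 17159825) had 10.7 RPKM from 828 reads in lung and no read in any other library. ENSMMUG00000030414, 205 bp long, had 7.96 RPKM in lung and 1 read outside it. Higher levels in lung belonged to transcripts also detected elsewhere. THBD (chromosome 10, 56337719 to 56339601), the endothelial thrombin receptor thrombomodulin, was chosen after its values were seen and had 211 RPKM in lung (interval 208 to 213), 31.9 in spleen, 6.23 in heart, 3.27 in kidney and 0.104 in cerebellum.

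Heart had the fewest 1-tissue transcripts and the highest level among them. The model of mml-mir-208b (ENSMMUG00000033517, chromosome 7, 86256995 to 86257591), 597 bp long, had 456 RPKM from 17244 reads in heart, 1 read each in cerebellum and kidney, and none in lung or spleen. It lies within the span of MYH7, the slow cardiac myosin heavy chain, whose transcript had 972 RPKM in heart and at most 0.215 RPKM elsewhere. METTL21EP, a methyltransferase pseudogene by its symbol, had 18.2 RPKM in heart and 0.367 RPKM in cerebellum. ENSMMUG00000010821 (chromosome 11, 66597585 to 66598485) had 13.1 RPKM in heart and 4 reads outside it. HSPB3, a small heat shock protein of muscle chosen after its values were seen, had 102 RPKM in heart, 2.56 in lung, 0.330 in cerebellum and no reads in kidney or spleen. C9H10orf71, chosen likewise, had 8.97 RPKM in heart and 0.0115 RPKM in lung, and was listed at 0 in the other 3 tissues.

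In spleen the leading 1-tissue transcripts were ENSMMUG00000005180 (chromosome 6, 56160034 to 56160942), with 18.8 RPKM in spleen and 0.750 RPKM in lung, and OR5AP2. OR5AP2 (ENSMMUG00000000657, chromosome 14, 16528655 to 16530400), an olfactory receptor by its symbol, had 16.5 RPKM from 1935 reads in spleen, 22 reads in lung, 2 in kidney and none in cerebellum or heart. ENSMMUG00000001788 (chromosome X, 78054126 to 78055880) had 8.46 RPKM in spleen and 0.674 RPKM in lung. For all 3, lung was the second tissue. The lung library also held low levels of the B cell markers MS4A1 (6.05 RPKM, against 225 in spleen) and CR2 (1.30 against 138), while the spleen macrophage marker CD5L had 0.162 RPKM in lung against 85.4 in spleen. The part of these markers in the results was not tested. In bulk tissue, fewer cells of a type and less RNA per cell cannot be told apart.

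The longest single-exon transcripts were not the abundant ones. ENSMMUG00000009344 (8715 bp) had at most 0.106 RPKM, ENSMMUG00000018665 (6766 bp) at most 0.076 RPKM, and NWD2 (6183 bp), an NTPase with WD repeats, 0.544 RPKM in cerebellum and at most 0.097 RPKM elsewhere. None reached 1 RPKM in any tissue.

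The symbols were then sorted into gene families known for single-exon genes. Such lists hold only transcripts with a symbol, of which 55.5% were detected, against 40.9% of all single-exon transcripts. The list of G-protein coupled receptors had 30 members, of which 14 were detected, 5 of them in 1 tissue and 1 in all 5. Of all detected single-exon transcripts, 20.7% were detected in 1 tissue and 45.8% in all 5. The share of the receptors detected, 46.7%, was above that of all single-exon transcripts and below that of transcripts with a symbol. The highest level was in spleen for 7 of the 14, in lung for 5, in kidney for 2 and in cerebellum for none. Over all detected single-exon transcripts, the shares for these tissues were 39.4%, 16.3%, 15.5% and 21.6%. The nucleotide receptor P2RY2 had 17.7 RPKM in lung, 13 in spleen, 7.24 in kidney, 7.20 in heart and 0.439 in cerebellum. FZD8, a Wnt receptor, had 16.3 RPKM in spleen, 6.28 in lung and 2.59 in kidney, against 1.17 in heart and 0.523 in cerebellum. Both stayed below 1 RPKM in cerebellum.

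Other receptors of the list had lower levels. GPR146 had 13.9 RPKM in lung and was the only receptor of the list detected in all 5 tissues, with 1.19 to 2.36 RPKM in the other 4. It lies within the span of C3H7orf50, whose transcript had 11.1 to 33.4 RPKM over the 5 tissues. Reads of GPR146 and of this host cannot be told apart, so its detection in all 5 is uncertain. FZD10, another Wnt receptor, had 4.98 RPKM in kidney and at most 0.908 RPKM elsewhere. GPR171, expressed by T cells, had 5.12 RPKM in spleen and 1.82 in lung, with at most 0.215 RPKM in the rest. The dopamine receptors DRD1 and DRD5 peaked at 0.787 RPKM in spleen and 0.493 RPKM in cerebellum, the serotonin receptors HTR1A and HTR1B at 0.019 and 0.301 RPKM, and the muscarinic receptors CHRM3 and CHRM5 at 0.404 and 0.428 RPKM. All of these neurotransmitter receptors stayed below 1 RPKM in every tissue. GPR119, P2RY4 and GPR151 were listed at 0 in all 5 tissues.

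Of 55 transcripts with an olfactory or taste receptor symbol, 663 to 1746 bp long, only 2 were detected and 44 had no reads in any library. These were OR5AP2 in spleen and TAS2R4, a bitter taste receptor, with 1.27 RPKM in cerebellum. The other 9 had reads below 1 RPKM.

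Innate immune receptors formed a list that was added after values were seen. It held 10 toll-like, formyl peptide, chemokine and complement receptors, of which 9 were detected, all of these in lung and none in cerebellum, against 40.9% of all single-exon transcripts detected anywhere, 31.4% in lung and 28.4% in cerebellum. Their highest level was in spleen for 5 and in lung for 4, against 39.4% and 16.3% of all detected single-exon transcripts. C5AR1, the receptor of complement fragment C5a, had 33.9 RPKM in lung, 23.1 in spleen, 3.59 in heart, 1.77 in kidney and 0.984 in cerebellum. TLR6, which recognises bacterial lipopeptides together with TLR2, had 22.4 RPKM in spleen, 5.91 in lung and 1.47 in kidney, against 0.421 in cerebellum and 0.258 in heart. CCRL2, an atypical chemokine receptor, had 20.4 RPKM in lung and 14.7 in spleen, and at most 1.03 RPKM in the rest. Lung and spleen stood above the other tissues for each of the receptors given here. The same was true of TLR2 (12.1 RPKM in spleen, 7.30 in lung) and of CXCR2, a neutrophil chemokine receptor (11 in spleen, 7.35 in lung).

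Transcription factors divided by family. JUNB, a subunit of the AP-1 factor, was detected in all 5 tissues, with 6.43 RPKM in cerebellum, 16.3 in kidney, 211 in lung (interval 209 to 213), 37.3 in heart and 45.7 in spleen. The early response gene IER5 had 6.23 RPKM in spleen and 0.881 to 3.77 RPKM elsewhere. None of 7 bHLH factors of neural and epithelial development was detected, the highest being NEUROG2 with 0.554 RPKM in cerebellum. Of 8 SOX, FOX and POU factors 2 were detected, FOXS1 in all 5 tissues with 1.15 to 3.16 RPKM and POU3F2 with 1.02 RPKM in cerebellum. The family of zinc finger genes (ZNF and ZBTB symbols), a list added after values were seen, had 17 members and all were detected, 9 of them in all 5 tissues, against 40.9% of all single-exon transcripts and 74.2% of both classes detected, and 37.2% of both classes detected in all 5. Spleen held the highest level for 13 of the 17, against 39.4% of all detected single-exon transcripts and 34.2% of both classes. ZBTB38, a repressor that binds methylated DNA, had 25 RPKM in lung, 16 in spleen, 15.1 in kidney, 7.78 in cerebellum and 3.47 in heart.

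The smaller families held 1 to 5 members each, and their detection varied. Of 5 histone genes 2 were detected, H1-3 with 1.64 RPKM in spleen and H4C16 with 1.60 RPKM in spleen and 1.15 in kidney. Of 4 connexins only GJB6 was detected, and GJA10, a connexin of the retina, was listed at 0 in all tissues. KCNA3, a potassium channel of lymphocytes, had 4.95 RPKM in lung and 4.63 in spleen, and the cardiac channel KCNA5 had 2.79 RPKM in heart and 1.21 in lung. KCNA10 stayed at 0.0335 RPKM or below. CLDN3, a tight junction claudin, had 10.3 RPKM in kidney, 7.86 in lung, 3.24 in cerebellum, 1.41 in spleen and 0.022 in heart. The insulin receptor substrates IRS1 and IRS2 were detected in all 5 tissues and were highest in lung, with 9.57 and 13.2 RPKM. Of 2 protocadherins, PCDHB15 had 1.88 RPKM in kidney, and PCDHB1 stayed at 0.034 RPKM or below. LINGO2, a neuronal surface protein, had 1.52 RPKM in cerebellum and at most 0.266 RPKM elsewhere. IFNB1, the type I interferon beta, and LCE5A, a late cornified envelope protein, were listed at 0 in all tissues. Of 2 single-exon models with a ribosomal protein symbol, that of RPS24 had 21.4 RPKM in spleen and 1.65 to 13.7 RPKM elsewhere. The model of RPS27A stayed at 0.221 RPKM or below. Whether these models are retrocopies was not tested, so their values may not be those of the spliced ribosomal protein genes. No single-exon transcript had an HSPA or mitochondrial gene symbol.

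**Figure D4:**
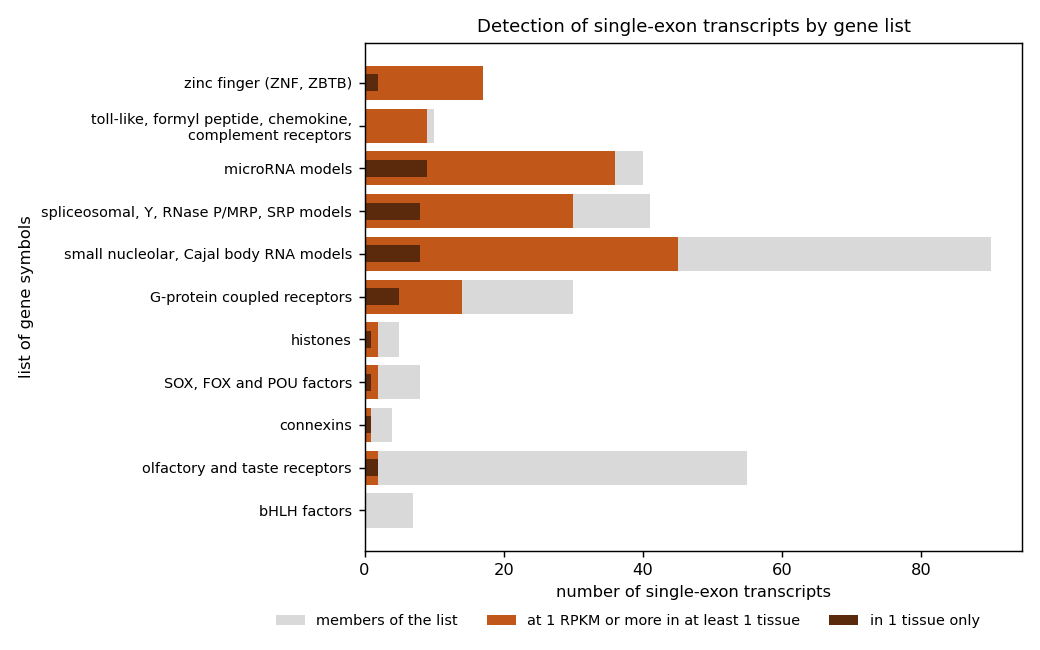
Each bar is a list of gene symbols with 4 or more single-exon transcripts: grey gives the number of transcripts, orange those that reached 1 RPKM anywhere, and dark brown those that reached it in 1 tissue only. Detection runs from 0 of 7 bHLH factors and 2 of 55 olfactory and taste receptors to 36 of 40 microRNA models and 17 of 17 zinc finger genes.

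Symbols of small RNAs marked another portion of the class, in lists added after values were seen. Values are for the transcript model listed in the files, above 200 bp long, and not for the mature small RNA. MicroRNA symbols belonged to 40 models with a median length of 431 bp and a longest of 5958 bp, of which 36 were detected, 9 in 1 tissue and 11 in all 5. The share detected was 90%, against 40.9% of all single-exon transcripts and 74.2% of both classes, of which 11.1% were detected in 1 tissue and 37.2% in all 5. MIR142, a microRNA locus of blood cells, had 57.2 RPKM in spleen (interval 54.3 to 60.3), 8.09 in lung, 0.564 in kidney, 0.10 in cerebellum and no reads in heart. The model of mml-mir-770, 5958 bp long, had 47.3 RPKM in cerebellum, 2.04 in lung, 1.87 in spleen, 0.445 in kidney and 0.400 in heart. It lies within the span of ENSMMUG00000005470, whose transcript had 106 RPKM in cerebellum, 105 in spleen and 6.30 to 29.3 RPKM elsewhere. The models of mml-mir-124a-1, mml-mir-129-2, mml-mir-7-3, mml-mir-153-1 and mml-mir-1224 were each detected in cerebellum only, with 2.10 to 11.4 RPKM. Of these, mml-mir-153-1 lies within PTPRN (26.8 RPKM in cerebellum), mml-mir-1224 within VWA5B2 (16.9) and mml-mir-7-3 within ENSMMUG00000012577 (3.12). These hosts were also highest in cerebellum, and reads of a host and of a model within it cannot be told apart.

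Models of microRNAs known from epithelia and vessels were highest in other tissues. The model of mml-mir-192, a microRNA of kidney, liver and gut, had 8.11 RPKM in kidney (interval 7.08 to 9.29) and at most 0.145 RPKM elsewhere. The epithelial mml-mir-429 had 5.66 RPKM in kidney, 2.58 in lung and no reads in cerebellum, heart or spleen. The endothelial mml-mir-126 had 20.3 RPKM in lung, 5.98 in spleen, 2.25 in kidney, 0.938 in heart and no reads in cerebellum. Its host EGFL7 had the same order of lung, spleen and then the rest, with 114, 42.6, 16.4, 13.8 and 3.22 RPKM in lung, spleen, heart, kidney and cerebellum. The model of mml-mir-675, which in mammals is processed from the noncoding H19 transcript, had 81.8 RPKM in heart, 54.7 in kidney, 48.4 in spleen, 18.7 in lung and 0.423 in cerebellum. The models of mml-mir-27a and mml-mir-23a overlap and can share reads, and had 8.63 and 8.54 RPKM in lung and at most 1.37 RPKM elsewhere.

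**Figure D5:**
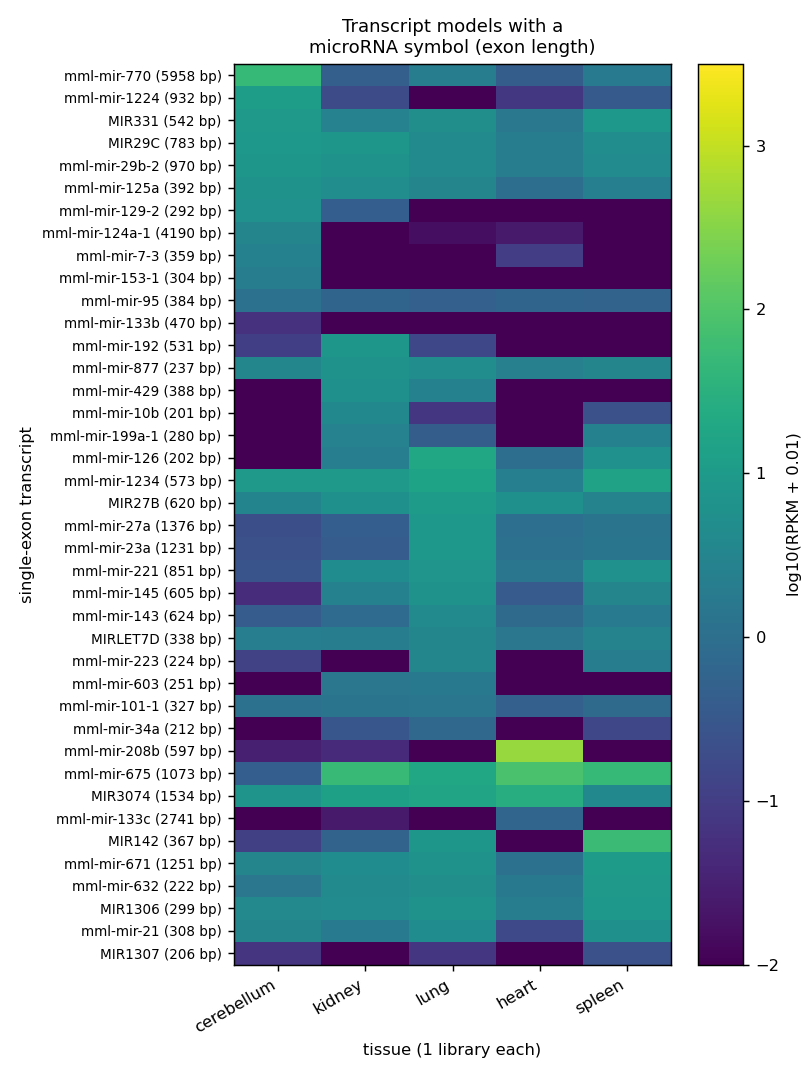
Rows are the 40 single-exon transcript models with a microRNA symbol, grouped by the tissue of the highest level, columns are tissues, and colour gives log10(RPKM + 0.01) of the model, not of the mature microRNA. The model of mml-mir-208b (456 RPKM in heart) is the brightest cell. MIR142 was highest in spleen (57.2 RPKM) and mml-mir-770 in cerebellum (47.3 RPKM), and both were also detected in other tissues.

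Small nucleolar and Cajal body RNA symbols, of RNAs that guide the modification of ribosomal and spliceosomal RNA, belonged to 90 models, of which 45 were detected and 31 had no reads. The share detected was 50%, against 40.9% of all single-exon transcripts, 55.5% of those with a symbol and 74.2% of both classes. All single-exon transcripts held 34.0% without reads, close to the share in this list. Of 36 models with the symbol U3, only 2 were detected and 29 had no reads in any library. The models with the highest levels lie within the span of abundant genes. SNORD14, within HSPA8, a constitutive heat shock protein, had 713 RPKM in kidney, 412 in spleen, 399 in cerebellum, 237 in heart and 215 in lung, beside 487, 295, 343, 174 and 158 RPKM of its host. SNORD15, within the ribosomal protein gene RPS3, had 251 RPKM in spleen beside 248 RPKM of its host, and 86.2 to 129 RPKM in the other tissues. SNORA53, within the mitochondrial phosphate carrier gene SLC25A3, had 121 RPKM in heart and 20.7 to 50.3 RPKM elsewhere, with heart also highest for the host (160 RPKM). In each of these the highest tissue was the same as that of the host. SNORD115, from a brain-expressed cluster of small nucleolar RNAs, had 59.6 RPKM in cerebellum, 2.01 in kidney and at most 0.557 RPKM in the rest.

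Spliceosomal, Y, RNase P/MRP and SRP RNA symbols belonged to 41 models, of which 30 were detected (73.2%, against 40.9% of all single-exon transcripts and 74.2% of both classes), 8 in 1 tissue and 4 in all 5. Of all detected single-exon transcripts, 20.7% were detected in 1 tissue and 45.8% in all 5. A U1 model (ENSMMUG00000025175) within SLC2A2, the glucose transporter of kidney and liver, had 23.0 RPKM in kidney and at most 1.31 RPKM elsewhere, and its host had 8.47 RPKM in kidney and at most 0.413 RPKM elsewhere. Another U1 model (ENSMMUG00000024466) within the ganglioside synthase gene ST8SIA1 had 9.71 RPKM in cerebellum beside 7.12 RPKM of its host. A Y RNA model (ENSMMUG00000028053) within ALDH9A1, an aldehyde dehydrogenase gene, had 89.4 RPKM in kidney beside 41.1 RPKM of its host. These models were higher than their hosts in the tissue given, which was not the usual case: of 21 such models detected together with their host, 4 had a highest level above that of the host, and the median ratio was 0.398.

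Overlap with other genes was therefore counted for the whole class. Of the single-exon transcripts 688 (26.5%) overlapped a transcript of another gene, compared with 32.8% of the transcripts with introns, and 49.0% of these were detected, against 38.0% of the 1913 without overlap. The share detected in all 5 tissues was similar, at 44.8% and 46.2% of those detected. There were 577 within the span of a transcript with introns. For 231 of these both the single-exon transcript and its host were detected, and in 119 (51.5%) the highest tissue was the same. The median ratio of the highest RPKM to that of the host was 0.673. It was 0.490 for 14 microRNA models, of which 9 shared the highest tissue with the host, and 0.227 for 37 small nucleolar and Cajal body models, of which 24 did. Strand is not given in the files, so reads of a host and of a transcript within it, on either strand, cannot be told apart here.

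Transcripts with and without a symbol differed in detection and spread. Of the 541 with a symbol, 55.5% were detected, and 33.7% of those detected were detected in all 5 tissues. Of the 2060 without a symbol, 37.1% were detected, and 50.5% of those detected were detected in all 5. The median highest level was 6.17 RPKM with and 10.2 RPKM without a symbol, and median tau was 0.677 and 0.636. Above 400 and up to 600 bp, 62.2% of the detected transcripts without a symbol were detected in all 5 tissues. Among the transcripts with a symbol that were present throughout, RRAGA, a GTPase that signals amino acid supply, had 46.2 RPKM in cerebellum and 15.7 to 30.5 RPKM elsewhere. HNRNPA0, an RNA-binding protein, had 45.8 RPKM in spleen and 13 to 44.3 RPKM elsewhere, and PURA, a nucleic acid-binding protein, had 26.7 RPKM in cerebellum and 4.42 to 14.6 RPKM elsewhere. These 3 were chosen after their values were seen.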

How the data were processed

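RNA-Seq libraries of 5 macaque tissues (1 library each, no replicates) were analysed from transcript tables. The authors deposited the count of reads per transcript, not normalized, beside the exon length and location. RPKM values, which scale the reads to exon length and properly mapped reads, were deposited by the authors too and were recomputed without difference in every row. The study describes alignment to rheMac2 and to Ensembl transcripts, and the submitters' processing notes name TopHat 1.2.0. The counting tool and its use of strand are not given in the sources used here, and reads without molecular identifiers are not independent molecules.

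Files were joined by transcript identifier, and starts were written 1-based (the spleen table already was). For 7 transcripts, none of them single-exon, the exon length differs between files. Symbols came from a table of Ensembl gene identifiers and matched 541 of 2601 single-exon transcripts. Detection was 1 RPKM or more, and the floor was 3 reads. Tau was computed on RPKM. Transcripts with introns were weighted to the exon lengths of the single-exon transcripts over 5 bins with bounds at 400, 600, 1000 and 2000 bp. All transcripts with introns entered the weighting, including the 1289 with a gap of 2 to 10 bp. A host was the transcript with introns that contains the location. Named transcripts were the 3 highest per tissue, the 3 highest per tissue among those detected there only, the 5 with the highest minimum over tissues, the 3 longest and members of gene family lists, and others are said to be chosen after their values were seen. Some members of the lists are not reported here. The class and the lists were chosen with earlier results of these data known. No tests were run. The functions were tested on simulated data, using matplotlib 3.10.9, scipy 1.17.1, pandas 2.3.3 and numpy 2.4.6 under Python 3.11.15. Precision is given as a 95% Wilson interval on a transcript's reads. The alternatives tried were other detection thresholds, tolerances of the span and length limits, upper quartile scaling, tau on a log scale, 1 transcript per gene, length weighting, and leaving out spleen, overlapping transcripts or the mitochondrial chromosome. Leaving out single-exon transcripts whose gene also has a transcript with introns was tried too.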

Additional observations from a re-analysis of the deposited data

How the results depend on the processing

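Each value was recomputed under the alternatives, giving 109 values. Of these, 63 stayed within a 95% interval of the reported value or, for counts, within 1.5 times of it. Another 38 moved further and 8 changed sign. The interval was taken over transcripts, which are not replicates, and serves only as a yardstick of size. Some of the 63 could not move. Leaving out single-exon transcripts whose gene also has a transcript with introns removed none. No mitochondrial transcript was detected, so leaving these out could change only the share detected. Leaving out spleen could not change the share detected in another tissue. Differences are single-exon minus with introns. The difference in share detected was -35.8 percentage points as reported, -28.4 at 0.1 RPKM, -29.5 at 5 RPKM, -30.6 with 1 transcript per gene, -33.0 above 500 bp, -43.5 with a span within 10 bp of the exon length, -38.7 without overlapping transcripts and -8.50 after length weighting. The ratio of median levels was 0.870 as reported, 0.428 at 0.1 RPKM, 0.618 at 10 reads, 0.990 above 500 bp, and turned to 1.26 at 5 RPKM and 1.12 after length weighting. The difference in median tau (0.0182) turned to -0.0126 after length weighting and -0.0056 without spleen. The difference in the share of detected transcripts found in 1 tissue (5.91 percentage points) was 9.37 at 0.1 RPKM, 9.17 at 10 reads, 3.10 above 500 bp, and turned to -1.54 at 5 RPKM and -0.219 after length weighting. The difference in the share found in all tissues (-4.47) was -15.9 at 0.1 RPKM and -16.9 at 10 reads, and turned to 14.7 at 5 RPKM and 3.71 after length weighting. The share detected at 0.1 RPKM, 10 reads and 5 RPKM was 44.6%, 41.0% and 15.3% in cerebellum, 45.1%, 36.9% and 17.2% in kidney, 47.0%, 42.1% and 18.2% in lung, 38.0%, 32.4% and 12.1% in heart, and 45.4%, 40.4% and 19.5% in spleen, with 27.3% in heart and 30.2% in spleen after upper quartile scaling. The number of 1-tissue transcripts in heart was 23 at 0.1 RPKM and 20 after upper quartile scaling, in kidney 17 at 10 reads, and in lung 64 at 0.1 RPKM, 53 at 10 reads and 84 without spleen. The cause of these shifts was not tested, other than that a lower threshold counts more transcripts by construction. No paired analysis was possible because each tissue had 1 library and no test was made, and for the same reason no replicate could be left out. At the median length, levels under 0.070 to 0.118 RPKM could not be told from 0.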
